A study of Mus musculus with 8 samples.

Results

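The genes described here carry glucose into the heart cell, split it to pyruvate and lactate, and store or release it as glycogen. They were taken as a list of 30 genes by name, out of 18137 genes with a named transcript in the table. The list holds 2 glucose transporters, the enzymes of each glycolytic step with their isozymes, lactate dehydrogenase, the enzymes that make and remove the regulator fructose 2,6-bisphosphate, and the enzymes of glycogen synthesis and breakdown. The rule that chose them uses no measured value, though the list was drawn up with earlier results of these data known.

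RNA was measured in whole hearts of mice from a study of aging hearts, in 4 sedentary samples and 4 samples from animals that swam. All 8 samples carry the wild-type genotype. The age, the sex and the length of the swimming program are not given in the sources used here, so the 2 groups can be told apart only as sedentary and swimming. The labels number the replicates 1 to 4 in each group and call them biological, without saying that each is a separate mouse, so the p-values below measure the spread between these samples.

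Glucose enters the cardiomyocyte through the transporters GLUT1 and GLUT4, is trapped as glucose 6-phosphate by hexokinase, and then either runs down glycolysis or is stored as glycogen. The adult heart draws most of its energy from fatty acids and also oxidises lactate. Most steps of the pathway are served by several isozymes, of which 1 is typical of striated muscle, and by transcripts that differ in their start or in a single exon.

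Sequences are shown for the members on which the results below turn. Promoters come from RefSeq (GRCm38.p6) and span 250 bases before to 50 after an annotated start, 5′ to 3′ on the gene's strand. Capitals mark ACGTG, a form of the core of the element bound by hypoxia-inducible factors. Other forms, such as GCGTG, were neither marked nor counted, so the matches below are matches of ACGTG alone. Both strands were read, so that CACGT is the same match on the other strand. CACGTG, the E-box bound by bHLH factors, counts as 2 overlapping matches. The Hk2 promoter is shown because Hk2 was the member whose groups did not overlap; it lies at chr6:82774405-82774704 on the minus strand and holds 2 matches.
Hk2 promoter 1: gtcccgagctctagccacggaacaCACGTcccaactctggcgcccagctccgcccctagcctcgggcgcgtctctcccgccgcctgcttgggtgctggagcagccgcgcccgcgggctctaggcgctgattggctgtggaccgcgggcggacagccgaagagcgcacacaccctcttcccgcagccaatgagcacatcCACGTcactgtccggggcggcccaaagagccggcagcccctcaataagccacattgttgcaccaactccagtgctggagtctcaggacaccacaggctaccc
The 2 Pfkm promoters are shown because transcripts that begin near them took very different shares between libraries. The upstream one lies at chr15:98092339-98092638 and the downstream one at chr15:98108221-98108520, both on the plus strand, with 3 matches and 1 match.
Pfkm promoter 1: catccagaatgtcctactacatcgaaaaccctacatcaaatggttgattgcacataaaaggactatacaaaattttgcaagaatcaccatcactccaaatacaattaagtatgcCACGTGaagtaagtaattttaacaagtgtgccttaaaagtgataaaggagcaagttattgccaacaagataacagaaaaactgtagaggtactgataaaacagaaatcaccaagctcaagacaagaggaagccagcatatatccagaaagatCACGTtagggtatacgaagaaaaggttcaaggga
Pfkm promoter 2: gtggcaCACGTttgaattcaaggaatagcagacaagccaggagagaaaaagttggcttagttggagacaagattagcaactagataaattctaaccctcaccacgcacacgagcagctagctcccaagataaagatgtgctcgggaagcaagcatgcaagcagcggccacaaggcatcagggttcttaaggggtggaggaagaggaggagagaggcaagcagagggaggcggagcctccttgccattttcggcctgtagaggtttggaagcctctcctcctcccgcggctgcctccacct
The Ldha promoters are shown for the same reason. They lie at chr7:46845554-46845853 and chr7:46846832-46847131 on the plus strand, and hold 5 matches and 0 matches.
Ldha promoter 1: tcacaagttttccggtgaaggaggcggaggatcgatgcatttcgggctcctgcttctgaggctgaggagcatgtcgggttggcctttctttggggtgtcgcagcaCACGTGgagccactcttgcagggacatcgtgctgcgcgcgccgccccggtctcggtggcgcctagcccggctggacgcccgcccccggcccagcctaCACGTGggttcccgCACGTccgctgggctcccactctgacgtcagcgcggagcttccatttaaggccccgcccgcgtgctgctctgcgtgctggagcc
Ldha promoter 2: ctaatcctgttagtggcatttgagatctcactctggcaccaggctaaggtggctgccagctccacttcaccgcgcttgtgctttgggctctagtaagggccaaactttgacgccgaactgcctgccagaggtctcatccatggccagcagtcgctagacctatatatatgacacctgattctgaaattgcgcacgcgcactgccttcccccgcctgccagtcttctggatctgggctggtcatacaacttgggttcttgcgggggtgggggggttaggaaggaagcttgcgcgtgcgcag

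Promoter entries matched 29 of the 30 genes, with 45 promoters. ACGTG was found in 18 of these 45 promoters (40%), which belong to 15 genes, and in 19.6% of all 32851 promoters in the RefSeq table. CACGTG was found in 4 of the 45 (8.89%) and in 7.15% of all promoters. GGGCGG, the GC box, was found in 23 of the 45 (51.1%), in 20 genes, and in 35.7% of all promoters. These are letter matches in a fixed window, and binding was not measured.

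The last sequences shown are 3 alternative exons from the GENCODE M21 transcripts (GRCm38). Pyruvate kinase mRNA carries either the M1 exon or the M2 exon, which are mutually exclusive. The M1 exon, at chr9:59675029-59675195, is exon 9 of the transcript Pkm-202, and the M2 exon, at chr9:59675568-59675734, is exon 9 of Pkm-201; both are on the plus strand and 167 bases long. Capitals mark the 64 positions at which the M1 and M2 exons differ, which leaves 61.7% identical.
Pkm-202 exon: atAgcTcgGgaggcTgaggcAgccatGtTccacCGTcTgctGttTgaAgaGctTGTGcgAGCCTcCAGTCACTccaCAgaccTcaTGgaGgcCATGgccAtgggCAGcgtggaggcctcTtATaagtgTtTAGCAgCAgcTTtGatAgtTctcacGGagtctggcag
Pkm-201 exon: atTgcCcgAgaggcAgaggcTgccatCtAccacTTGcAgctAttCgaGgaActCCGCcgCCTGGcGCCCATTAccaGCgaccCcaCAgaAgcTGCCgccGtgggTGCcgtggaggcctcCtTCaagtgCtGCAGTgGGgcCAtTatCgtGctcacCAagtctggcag
The alternative exon of Phka1, the muscle alpha subunit of phosphorylase kinase, is exon 19 of Phka1-202 and is absent from Phka1-201. It lies at chrX:102557096-102557272 on the minus strand and is 177 bases long.
Phka1-202 exon: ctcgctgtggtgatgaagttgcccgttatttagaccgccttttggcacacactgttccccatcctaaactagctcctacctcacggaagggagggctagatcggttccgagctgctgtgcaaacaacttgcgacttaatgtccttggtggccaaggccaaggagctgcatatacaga

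Across the pathway the levels of swimming hearts lay close to those of sedentary hearts. The FPKM (fragments per kilobase of transcript scaled to the library's total, so a level per length) of the 30 genes summed to 3355 ± 135.5 in sedentary and 3337 ± 87.6 in swimming samples (SD, n = 4 each), which was 1.41% to 1.57% of each library's table. Of the 30 genes, 29 reached the mean of 0.5 FPKM required for testing. None of the 29 was called in a limma fit of log2(FPKM + 0.5) across 11674 genes with Benjamini-Hochberg adjustment, with adjusted p from 0.586 to 0.999. In that fit, 0.0171% of all genes were called higher and 0% lower in swimming hearts. At an unadjusted p below 0.05, limma found 1 of the 29 members, Hk2, with a lower level in swimming hearts, against 7.37% of all genes tested (4.93% higher and 2.43% lower). Hk2 was also the 1 member whose groups did not overlap, against 4.82% of all genes (3.24% with all swimming libraries above and 1.58% with all below).

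The differences were small for most members. The log2 fold change (swimming over sedentary) was above 0 for 13 members and below 0 for 16, with a median of -0.03 against 0.03 over all genes tested. It lay within 0.1 of 0 for 19 members, and the median size without sign was 0.0731 against 0.0993 over all genes. For 19 members the 95% interval of the limma fit lay within a 25% change either way, and for the other 10 it was wider, so that a larger change in those is not excluded. The most negative value was that of Slc2a1 (-0.34) and the most positive that of Pfkp (0.35), both at low levels. Fewer cells of a type and less RNA per cell cannot be told apart in whole tissue.

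**Figure D1:**
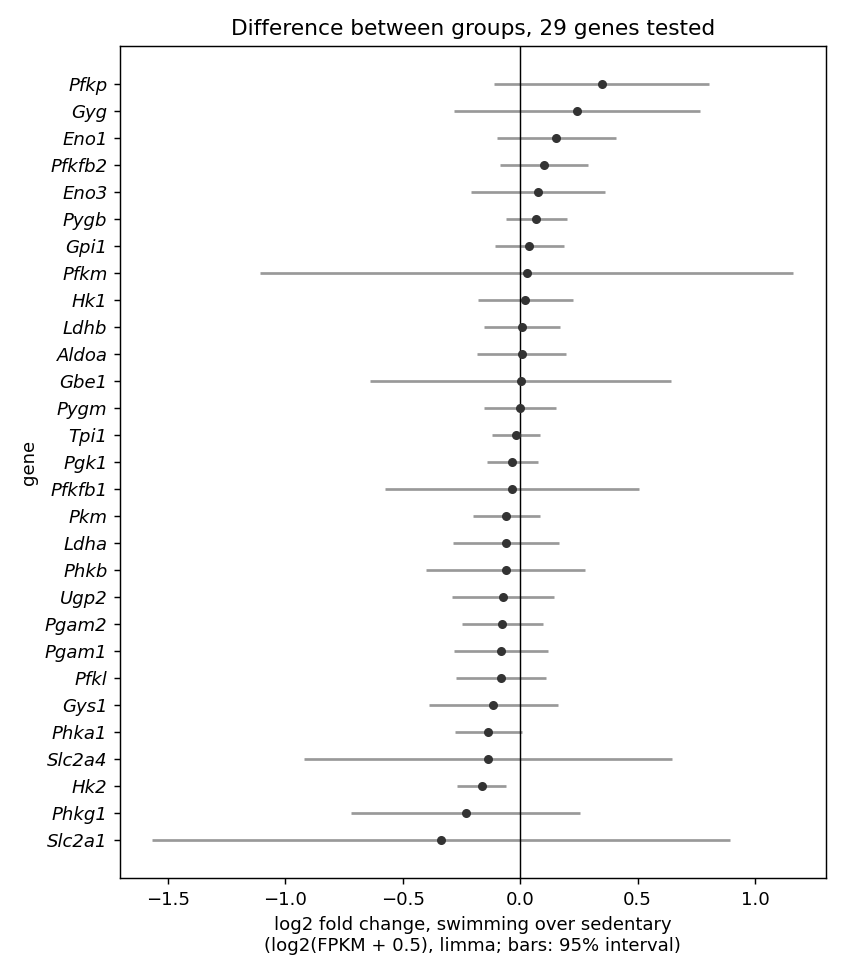
Log2 fold change of the 29 members tested (x axis, swimming over sedentary, log2(FPKM + 0.5)), ordered by value (y axis, gene); points are limma estimates and bars their 95% intervals. The interval of Hk2 lies below 0, from -0.27 to -0.06, and that of Pfkm runs from -1.11 to 1.16.

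The library totals ran from 210413 to 235461 FPKM, and the depth in reads is unknown. Mitochondrially encoded genes held 13.4% to 18.5% of the table in swimming and 19.1% to 20.8% in sedentary libraries, without overlap. FPKM is scaled to the library's total, and the part of this share in the differences between groups was not tested. The 10 defining genes of ventricular cardiomyocytes summed to 7367 to 8622 FPKM in sedentary and 7188 to 8165 in swimming samples, so their sum bore out the heart label. Myl3, Myl2 and Tnnc1 were the highest of them. The 4 atrial markers summed to 27.1 to 105.7 FPKM in sedentary and 66.3 to 125.5 in swimming samples, most of it Nppa. Myl7 did not exceed 0.00401 FPKM in any library, Sln 1.55 and Myl4 6.96. Whether the main transcripts of these genes are listed was not tested. Single markers were uneven between libraries. Mybpc3 ran from 0.791 FPKM in sedentary replicate 3 to 49.1 in swimming replicate 1, and Tnni3 from 36.5 in swimming replicate 3 to 219.8 in swimming replicate 2. The 11 skeletal muscle markers summed to 4.0 to 9.98 FPKM in sedentary and 5.65 to 9.34 in swimming samples, most of it Mybpc2 (2.91 to 9.33); the other 10 did not exceed 0.444 FPKM in any library. The 7 macrophage markers summed to 161.8 to 176.6 FPKM in sedentary and 200.5 to 223.6 in swimming hearts, without overlap, and all 7 had a positive log2 fold change; none was called by limma, and 3 had an unadjusted p below 0.05. Sedentary replicate 4 stood apart in 6 adipocyte markers, at 20.97 FPKM against at most 0.969 in any other library, and in 7 hepatocyte markers, at 64.3 against at most 17.0.

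Of the glucose transporters among the members, Slc2a4, the insulin-responsive GLUT4, had the higher RNA level. Its levels were 77.9, 30.3, 66.7 and 75.6 FPKM in sedentary replicates 1 to 4 and 65.1, 60.1, 34.0 and 61.0 FPKM in swimming replicates 1 to 4. One library in each group, sedentary replicate 2 and swimming replicate 3, stood well below the other 6, and the groups overlapped. The log2 fold change was -0.14 with a 95% interval from -0.92 to 0.65 (limma, adjusted p = 0.939). Slc2a1, the basal transporter GLUT1, was at 2.29, 2.43, 2.55 and 5.14 FPKM in sedentary and 0.695, 1.18, 4.50 and 4.99 FPKM in swimming samples. Both groups spanned low and high libraries, and the highest sedentary value was that of replicate 4, the library with adipocyte and hepatocyte markers, whose part in it was not tested. Without that library the log2 fold change of Slc2a1 was -0.10 in place of -0.34, and with protein-coding transcripts alone it was 0.25, so its direction is not settled by these data.

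Hexokinase 2, the insulin-regulated enzyme that traps glucose in muscle and heart, was lower in every swimming sample. Hk2 was at 71.0, 77.6, 75.7 and 73.1 FPKM in sedentary and 65.5, 68.0, 67.7 and 64.0 FPKM in swimming hearts, so the highest swimming value lay below the lowest sedentary one. The means were 74.3 ± 2.89 and 66.3 ± 1.89 FPKM (SD, n = 4 each), a log2 fold change of -0.16 (SE 0.0448), or 10.7% less, with a 95% interval from 16.9% less to 4.1% less. The unadjusted p of limma was 0.00662, and after adjustment over all genes it was 0.586, so the difference did not pass the threshold. It kept its direction with each library left out, between -0.19 and -0.14, with adjusted p from 0.404 to 0.811. The log2 fold change of Hk2 was -0.20 with median-of-ratios scaling and -0.13 with quantile normalization. The macrophage markers given above moved between the same groups, in the opposite direction, and their part in the Hk2 difference was not tested. The promoter printed for Hk2 above begins the transcript Hk2-201, which made up at least 97.6% of the gene in each library.

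Hk1, the housekeeping hexokinase, was at 31.1 ± 3.23 FPKM in sedentary and 31.5 ± 2.30 in swimming hearts, a log2 fold change of 0.02 (limma, adjusted p = 0.964). Both hexokinases summed to 105.5 ± 5.30 and 97.8 ± 2.95 FPKM. Hk2 made up 72.6%, 70.5%, 71.1% and 68.0% of that sum in sedentary and 69.5%, 68.9%, 66.9% and 65.8% in swimming samples. The shares overlapped, with a difference of -2.76 percentage points and an exact two-sided permutation p of 0.0857, which was 0.686 after adjustment over 8 isozyme sets; the smallest p that the 70 assignments allow is 0.0286.

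**Figure D2:**
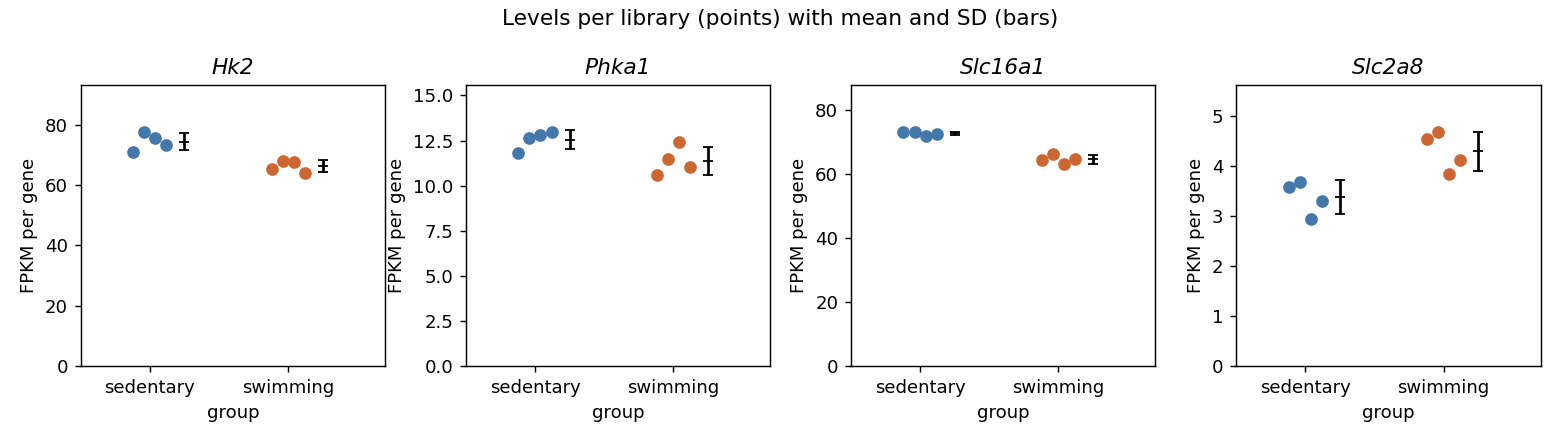
FPKM per gene (y axis, from 0) in sedentary and swimming samples (x axis) for Hk2, Phka1, Slc16a1 and Slc2a8; points are libraries, and the bars beside them show the mean and SD of 4. The groups do not overlap for Hk2, Slc16a1 and Slc2a8, and they overlap for Phka1.

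Phosphofructokinase, the main control point of glycolysis, was the step whose summed level varied most in proportion among those at more than 100 FPKM. The muscle isozyme Pfkm was at 207.8, 103.9, 76.8 and 235.5 FPKM in sedentary and 78.1, 225.2, 101.8 and 236.3 FPKM in swimming samples. In each group 2 libraries were low and 2 were high, with nothing in between, and the means of 156.0 ± 77.4 and 160.3 ± 82.0 FPKM hardly differed. The spread was within the groups and not between them, and the log2 fold change of 0.03 carried a 95% interval from -1.11 to 1.16 (limma, adjusted p = 0.992).

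The transcripts of Pfkm divided along the same libraries. Pfkm-201, whose first exon starts 15822 bases downstream of that of Pfkm-205, was at 204.8, 70.2, 47.4 and 230.9 FPKM in sedentary and 55.7, 221.0, 68.5 and 233.0 FPKM in swimming samples. Pfkm-205, which begins near the upstream promoter shown above, was at 2.93, 33.7, 29.1 and 4.65 FPKM and at 22.0, 3.97, 33.1 and 3.34 FPKM. The libraries that were low in Pfkm-201 were those high in Pfkm-205, in both groups. The annotated coding length was 2340 bases in both transcripts.

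An assembled transcript that the table does not pair with a gene, TCONS_00007181, ran opposite to Pfkm. It was chosen after the values were seen, among 5427 assembled transcripts, as the one whose sum with Pfkm varied least. Its levels were 9.14, 141.4, 155.2 and 11.8 FPKM in sedentary and 152.2, 6.95, 111.3 and 12.8 FPKM in swimming samples. With it added, Pfkm came to between 213.2 and 249.1 FPKM in all 8 libraries, a coefficient of variation of 5.78%, where that of Pfkm alone was 46.7%. The next assembled transcript by the same measure left 13.3%, and it was at 443.8 to 510.0 FPKM in all 8 libraries. Adding a large and steady level lowers this measure by itself. Whether its reads come from the Pfkm gene was not tested, since its position is not given in the table.

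**Figure D3:**
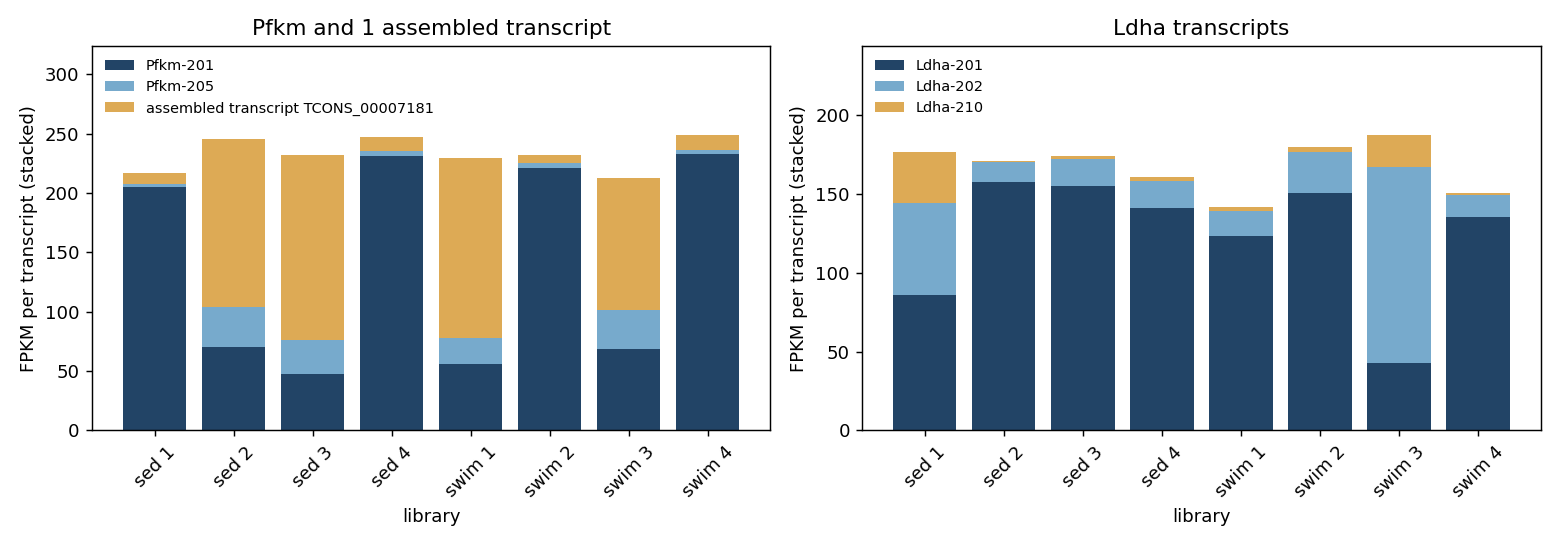
Stacked FPKM per transcript (y axis, from 0) in each of 8 libraries (x axis), for Pfkm-201, Pfkm-205 and the assembled transcript TCONS_00007181 (left) and for Ldha-201, Ldha-202 and Ldha-210 (right). Bars split in different ways in libraries of the same group, and the summed heights on the left differ less between libraries than those of Pfkm-201 do.

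The other phosphofructokinases were far lower. Pfkl, the liver form, was at 19.3 ± 1.37 FPKM in sedentary and 18.3 ± 1.82 in swimming hearts. Pfkp, the platelet form, was at 5.64, 3.33, 6.19 and 5.33 FPKM in sedentary and 6.71, 7.98, 5.02 and 6.60 FPKM in swimming hearts, with overlap. Its log2 fold change of 0.35 had a 95% interval from -0.11 to 0.81 (limma, adjusted p = 0.719), and without sedentary replicate 2, the lowest library, it was 0.17. The bifunctional enzymes that set fructose 2,6-bisphosphate, an activator of phosphofructokinase, were led by the heart form Pfkfb2 at 20.9 ± 2.06 and 22.4 ± 1.39 FPKM. Pfkfb1 was at 4.78 ± 1.59 and 4.46 ± 0.377 FPKM. Transcripts not annotated as protein-coding made up 38.7% of the Pfkfb2 level in sedentary and 35.1% in swimming hearts.

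Within Pfkfb1, the transcript Pfkfb1-201 was at 1.84, 1.82, 1.63 and 2.12 FPKM in sedentary and 1.51, 1.15, 0.661 and 1.25 FPKM in swimming samples, all swimming values below all sedentary ones. The log2 fold change was -0.54 with an unadjusted limma p of 0.0178 and an adjusted p of 0.847. Pfkfb1-202, which starts at another first exon, was at 0 in sedentary replicate 1 and between 2.46 and 3.52 FPKM in the other 7 libraries.

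The middle of glycolysis was abundant and even. Aldoa, the muscle aldolase that splits fructose 1,6-bisphosphate, had the highest level of all members at 689.2 ± 48.3 FPKM in sedentary and 693.1 ± 65.6 in swimming hearts. Gpi1, which converts glucose 6-phosphate to fructose 6-phosphate, was at 75.2 ± 5.47 and 77.2 ± 3.47 FPKM, and Tpi1, which interconverts the triose phosphates, at 170.6 ± 6.84 and 168.2 ± 3.58. Pgk1, the first ATP-producing enzyme of the pathway, was at 108.9 ± 3.77 and 106.4 ± 4.34 FPKM. The log2 fold changes of these 4 genes lay between -0.03 and 0.04. The interval of Tpi1 was one of the narrowest, from 8.1% less to 5.87% more in swimming hearts.

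Gapdh could not be read. Its 4 listed transcripts, out of 13 annotated, summed to between 0 and 0.752 FPKM, and the transcripts that carry most of the gene are not analysed here. Glyceraldehyde 3-phosphate dehydrogenase is therefore left without a level, and the value says nothing of its abundance in the heart.

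The lower steps were led by the muscle isozymes. Pgam2, the muscle phosphoglycerate mutase, was at 198.9 ± 18.2 FPKM in sedentary and 188.3 ± 9.24 in swimming hearts, and Pgam1, the brain form, at 22.2 ± 0.884 and 21.1 ± 2.53. Eno3, the muscle beta-enolase, was at 180.4, 230.4, 234.1 and 249.6 FPKM in sedentary and 207.6, 215.6, 247.9 and 270.4 FPKM in swimming samples. The Eno3 groups overlapped, with a log2 fold change of 0.08 (limma, adjusted p = 0.896) that was -0.02 without sedentary replicate 1. Eno1, the ubiquitous alpha-enolase, was at 22.2 ± 3.25 and 24.5 ± 1.27 FPKM. A near-identical copy, Eno1b, was listed at 3.45 ± 0.251 and 3.30 ± 0.0893 FPKM, and reads may be divided between it and Eno1.

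None of the 3 main transcripts of Eno3 passed the test for a changed share, though the shares of 2 did not overlap, as for 3.11% of all transcripts in that test. Eno3-206, which starts at a first exon of its own, made up 54.4%, 60.1%, 57.7% and 60.1% of the gene in sedentary and 63.0%, 61.8%, 68.0% and 69.6% in swimming hearts, all swimming shares above all sedentary ones. Eno3-201 made up 27.7% ± 1.97 in sedentary and 23.0% ± 1.96 in swimming hearts, also without overlap. Eno3-202 made up 12.7% ± 0.882 and 10.2% ± 1.78, with overlap. The 3 main transcripts of Eno3 have the same coding length of 1302 bases, and their coding sequences were not compared. In the limma fit of each transcript against the rest of its gene, across 11635 transcripts, Eno3-206, Eno3-201 and Eno3-202 had unadjusted p of 0.0595, 0.0875 and 0.105 and an adjusted p of 0.960 each.

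Pyruvate kinase, the last step, came from Pkm at 252.8 ± 12.6 FPKM in sedentary and 242.6 ± 14.9 in swimming hearts. The M1 transcript, Pkm-202, is the form of differentiated muscle, and the M2 transcript, Pkm-201, is that of proliferating and many non-muscle cells. Of the sum of both, M1 made up 54.5%, 56.1%, 58.4% and 56.7% in sedentary and 56.9%, 53.5%, 54.0% and 56.3% in swimming hearts. The shares overlapped, at 56.4% ± 1.59 and 55.2% ± 1.72. They rest on levels assigned to whole transcripts, which also differ in length, at 2041 bases for Pkm-202 and 2432 for Pkm-201. Reads over the exons shown above were not counted, so the balance of the 2 exons is not given by these shares.

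Lactate dehydrogenase RNA was mostly of the heart type. Ldhb, whose tetramer favours the oxidation of lactate, was at 505.1 ± 40.7 FPKM in sedentary and 506.8 ± 23.6 in swimming hearts, and Ldha, the muscle type, at 174.1 ± 7.69 and 168.0 ± 22.9. Ldhb made up 74.3% ± 2.10 and 75.1% ± 3.35 of both, with an exact permutation p of 0.686. The gene level of Ldha was steadier than that of its transcripts. Ldha-201 was at 86.2, 157.5, 155.4 and 141.4 FPKM in sedentary and 123.7, 151.1, 42.8 and 135.6 FPKM in swimming samples, and Ldha-202 at 57.9, 12.9, 17.0 and 17.2 FPKM and at 15.9, 25.5, 124.6 and 13.9 FPKM. Sedentary replicate 1 and swimming replicate 3 were the libraries low in the first and high in the second. Their first exons start 1292 bases apart, and the coding length was 996 bases in both. Ldha-202 begins at the promoter shown above with 5 ACGTG matches, and Ldha-201 at the one with 0.

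**Figure D4:**
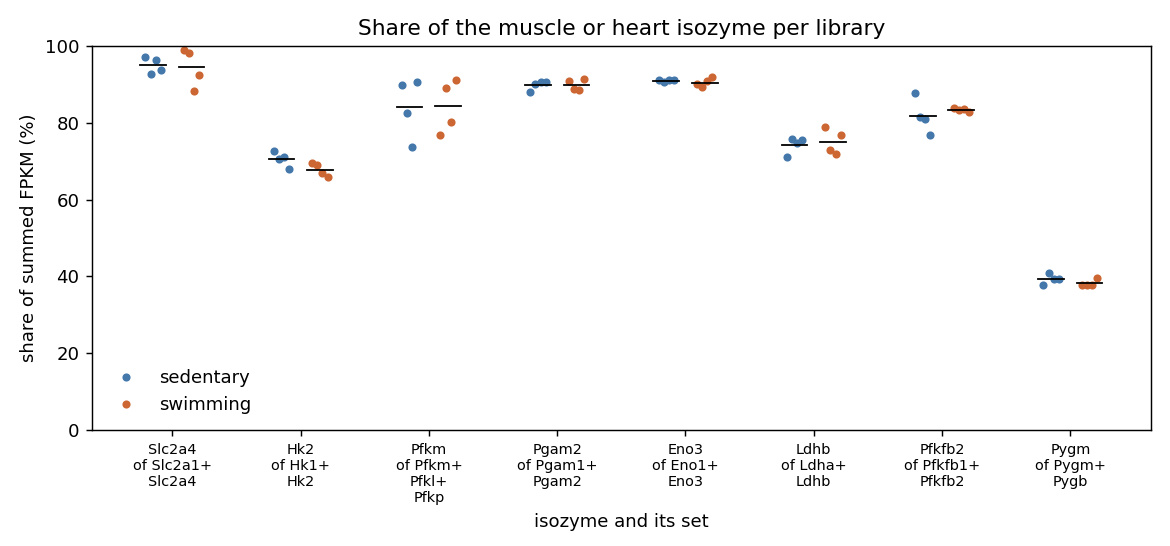
Share of the muscle or heart isozyme in the summed FPKM of its isozymes (y axis, percent, from 0 to 100) for 8 sets (x axis); points are the 4 sedentary and 4 swimming libraries and lines the group means. All sets overlap between the groups; Eno3 lies between 89.2% and 91.8% in every library and Pygm between 37.7% and 40.9%.

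In 7 of the 8 isozyme sets the muscle or heart form held the larger part of the summed FPKM. Slc2a4 made up 94.9% ± 2.16 in sedentary and 94.4% ± 5.0 in swimming hearts, Pfkm 84.1% ± 7.87 and 84.3% ± 6.80, and Pgam2 89.9% ± 1.21 and 89.9% ± 1.5. Eno3 made up 91.0% ± 0.346 and 90.5% ± 1.10, and Pfkfb2 81.7% ± 4.58 and 83.4% ± 0.423. Glycogen phosphorylase was the exception, with the muscle form Pygm at 39.3% ± 1.29 and 38.2% ± 0.955 against the brain form Pygb. Exact permutation p-values ran from 0.0857 (Hk2) to 1 over the 8 sets, and adjusted values from 0.686 to 1.

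Glycogen phosphorylase was expressed far above glycogen synthase. The phosphorylase, which releases glucose 1-phosphate from glycogen, came from Pygm at 127.9 ± 8.63 FPKM in sedentary and 127.9 ± 7.66 in swimming hearts and from Pygb at 197.0 ± 10.1 and 206.7 ± 10.1. Gys1, the muscle glycogen synthase, was at 17.2, 19.8, 18.9 and 26.3 FPKM in sedentary and 18.1, 19.0, 19.0 and 18.6 FPKM in swimming samples. The highest value was that of sedentary replicate 4, the library with adipocyte and hepatocyte markers, and their part in it was not tested. The log2 fold change of Gys1 was -0.11 (limma, adjusted p = 0.841) and 0.01 without that library.

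Ugp2, which makes the UDP-glucose that glycogen synthase uses, was at 146.6 ± 16.7 FPKM in sedentary and 138.9 ± 10.9 in swimming hearts. Its transcripts Ugp2-201 and Ugp2-202 differ in their first exon, and Ugp2-201 made up 51.2% ± 4.12 and 53.0% ± 4.95 of both. Gyg, the glycogenin that primes new glycogen, was at 21.9, 26.4, 16.9 and 21.9 FPKM in sedentary and 24.3, 23.5, 39.5 and 18.9 FPKM in swimming samples. Swimming replicate 3 was the highest library, and its transcript Gyg-201 was at 11.6 FPKM there against at most 3.07 elsewhere. The log2 fold change of Gyg was 0.24 (limma, adjusted p = 0.821) and 0.04 without that library. Gbe1, the branching enzyme, was near the limit of testing at 1.34 ± 0.461 and 1.37 ± 0.628 FPKM. Only 2 of its 7 annotated transcripts are listed, so this is the level of those alone.

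Phosphorylase kinase, which activates glycogen phosphorylase in response to calcium and adrenergic signals, was low beside its substrate. Phka1, its muscle alpha subunit, was at 11.8, 12.6, 12.8 and 13.0 FPKM in sedentary and 10.6, 11.5, 12.4 and 11.0 FPKM in swimming hearts. Swimming replicates 1, 2 and 4 lay below every sedentary library and swimming replicate 3 lay among them, with a log2 fold change of -0.14 and a 95% interval from -0.28 to 0.01 (limma, unadjusted p = 0.0587, adjusted p = 0.674). The transcript with the exon shown above, Phka1-202, made up 11.3% ± 1.60 and 11.4% ± 3.44 of the sum of Phka1-201 and Phka1-202. Phkg1, the muscle catalytic subunit, was at 5.21 ± 1.25 and 4.35 ± 1.05 FPKM, and Phkb, the beta subunit, at 1.51 ± 0.409 and 1.39 ± 0.0977. For Phkb, 6 of 9 annotated transcripts are listed. Of their summed level, 90.9% in sedentary and 89.4% in swimming hearts came from Phkb-204 and Phkb-209, annotated as subject to nonsense-mediated decay. Whether unlisted transcripts carry more of the gene was not tested. The listed protein-coding transcripts of Phkb averaged 0.137 and 0.147 FPKM in sum, below the level required for testing. The log2 fold changes of Phkg1 and Phkb were -0.23 and -0.06 (limma, adjusted p = 0.817 and 0.935).

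**Figure D5:**
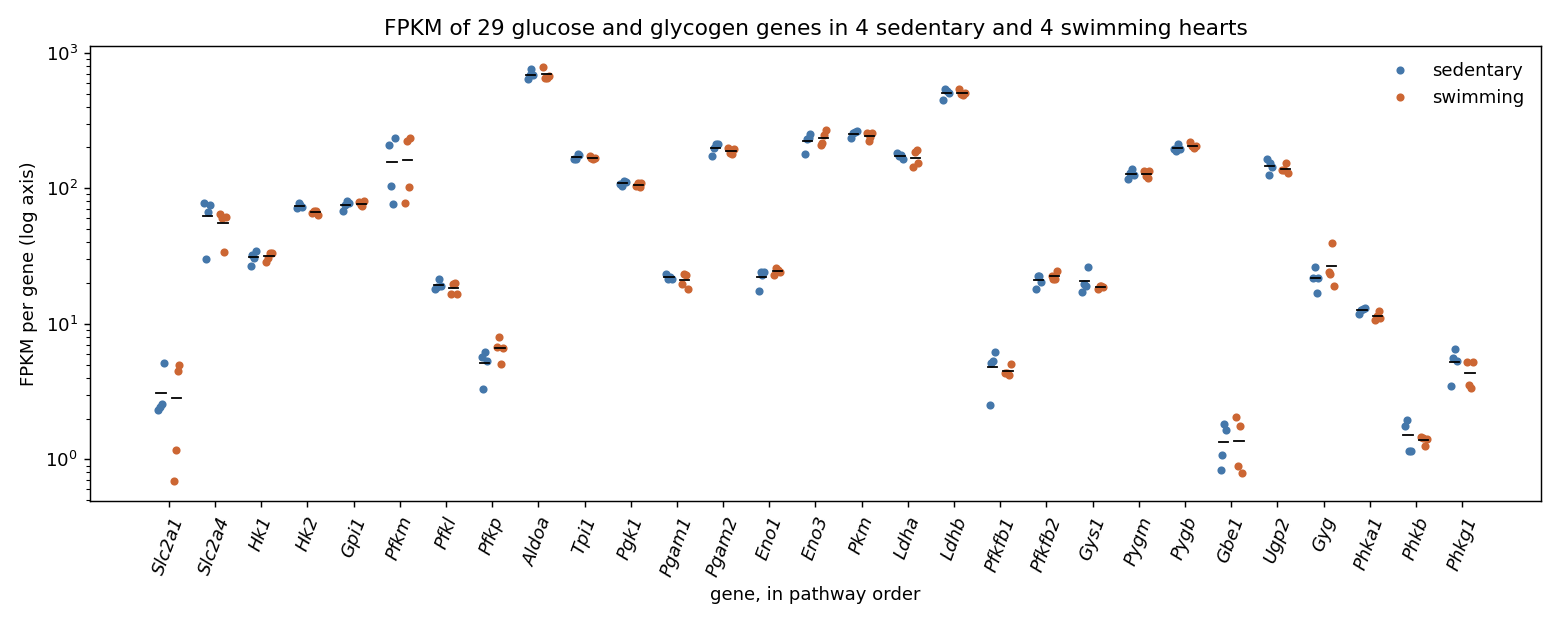
FPKM per gene (y axis, log scale) of the 29 members other than Gapdh, in pathway order (x axis); points are libraries, blue for sedentary and orange for swimming, and lines are group means. Levels run from Slc2a1, Gbe1 and Phkb at a few FPKM or less to Aldoa and Ldhb at the top, and Pfkm is spread widely within both groups.

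Of the 29 members tested, 12 had a mean of at least 100 FPKM, against 1.88% of all genes tested. Averaged over the 8 libraries, the 18 steps other than that of Gapdh covered a wide range of levels. Isozymes of a step were summed, and for phosphorylase kinase the subunits Phka1, Phkb and Phkg1. The most abundant steps were aldolase (691.2 FPKM), lactate dehydrogenase (677.0), glycogen phosphorylase (329.8), enolase (252.9), pyruvate kinase (247.7) and phosphoglycerate mutase (215.2). They were followed by phosphofructokinase (182.8), triose phosphate isomerase (169.4), UDP-glucose pyrophosphorylase (142.8), phosphoglycerate kinase (107.7), hexokinase (101.6), glucose phosphate isomerase (76.2) and glucose transport (61.8). The place of phosphofructokinase leaves out the assembled transcript TCONS_00007181, whose link to Pfkm was not tested. The least abundant steps were the fructose 2,6-bisphosphate enzymes (26.3), glycogenin (24.2), glycogen synthase (19.6), phosphorylase kinase (18.2) and the branching enzyme (1.36). The phosphorylase kinase value adds subunits of the same complex, so it is not a level of the complex. For Phkb and the branching enzyme, some annotated transcripts are not listed. Of the 17 pairs of neighbours in this order, 11 overlapped over the libraries. The 6 pairs that did not were lactate dehydrogenase above glycogen phosphorylase, phosphorylase above enolase, UDP-glucose pyrophosphorylase above phosphoglycerate kinase, hexokinase above glucose phosphate isomerase, glucose transport above the fructose 2,6-bisphosphate enzymes, and phosphorylase kinase above the branching enzyme. Among members at 10 FPKM or more, 23 in all, the median coefficient of variation over libraries was 8.32%, against 8.76% for the 2769 genes at that level. The highest library was at least 2 times the lowest for 7 members and under 1.5 times for 19.

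Single transcripts of the members gave no call. The table lists 118 of their transcripts, of which 70 entered the limma fit across 22614 transcripts; none was called, with 0.0265% of all transcripts called higher and 0.0265% lower. At an unadjusted p below 0.05, limma found 6 of the 70, 1 higher and 5 lower, against 5.51% of all transcripts tested (3.41% higher and 2.09% lower). The groups did not overlap for 3 of the 70, against 4% of all (2.6% above and 1.4% below), namely Hk2-201 and Pfkfb1-201 (lower) and Hk1-212 (higher), the last named after its values were seen. Of 59 transcripts fitted against the rest of their gene, limma called 0 (0.0172% of all called higher and 0.0258% lower) and 1 had an unadjusted p below 0.05, against 4.49% of all (2.25% higher and 2.23% lower). That was Slc2a1-204, annotated as subject to nonsense-mediated decay, at 0, 1.23, 1.08 and 2.73 FPKM in sedentary samples and listed at 0 in all 4 swimming samples. The share of the gene did not overlap between the groups for 4 of these 59, against 3.11% of all (1.68% above and 1.44% below); they were Eno3-206 and Hk1-212 (higher) and Eno3-201 and Pfkfb2-206 (lower), of which Hk1-212 and Pfkfb2-206 were named after their values were seen.

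Around the members, 60 other genes of glucose entry, glycolysis, lactate transport, glycogen turnover and their transcription factors were read from the same fit. Of the 48 that were tested, limma called 0, 7 had an unadjusted p below 0.05 (4 higher, 3 lower), against 7.37% of all genes, and 2 had groups without overlap, against 4.82% of all genes. The log2 fold change was positive for 29 and negative for 19, with a median of 0.02. The gene with the lowest p was Slc16a1, the monocarboxylate transporter MCT1 that moves lactate and pyruvate across the cell membrane. Slc16a1 was at 73.1, 73.0, 71.8 and 72.6 FPKM in sedentary and 64.1, 66.2, 62.9 and 64.6 FPKM in swimming hearts. All swimming values lay below all sedentary ones, with means of 72.6 ± 0.572 and 64.5 ± 1.35, a log2 fold change of -0.17, an unadjusted limma p of 0.00151 and an adjusted p of 0.479.

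Slc2a8, the intracellular glucose transporter GLUT8, was the other gene without overlap, at 3.59, 3.69, 2.94 and 3.31 FPKM in sedentary and 4.54, 4.69, 3.85 and 4.12 FPKM in swimming hearts. Its log2 fold change was 0.31, with an adjusted p of 0.608 in limma. Ppp1r3a, which anchors protein phosphatase 1 to glycogen, was at 36.4 ± 2.57 and 42.0 ± 2.64 FPKM (log2 fold change 0.21, limma adjusted p = 0.608). Pfkfb3, another bifunctional enzyme of fructose 2,6-bisphosphate, was at 2.21 ± 0.579 and 1.39 ± 0.277 FPKM (log2 fold change -0.50, limma adjusted p = 0.642). Of the remaining 3 at an unadjusted p below 0.05, Pgm2l1 and Mlxip, the glucose-sensing factor MondoA, had positive values of 0.29 and 0.53, and Phka2, the liver alpha subunit of phosphorylase kinase, a negative one of -0.28. Txnip, an inhibitor of glucose uptake, was at 167.1 ± 46.0 and 151.2 ± 38.4 FPKM. Slc2a3, the transporter GLUT3, was at 1.10 ± 0.400 and 1.66 ± 0.491 FPKM, with a log2 fold change of 0.44 (limma, adjusted p = 0.707). Tbc1d4, the Akt substrate that restrains GLUT4 vesicles, was below the level required for testing, at 0.288 ± 0.221 and 0.156 ± 0.269 FPKM.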

How the data were processed

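The deposited table gives FPKM per transcript, made by the authors from total RNA that was rid of rRNA with RNase H and primed with random hexamers, per the labels' protocols. The submitters' processing notes name STAR 2.5.1a, HISAT2, Subread, featureCounts 1.4.6-p5, Salmon 0.8.2 and the build mm10. The tool behind the FPKM values and the strandedness of the kit are not given in the sources used here. Reads of overlapping genes or of processed pseudogenes may therefore be divided.

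GENCODE M21 named 45676 of 45742 Ensembl transcripts, and FPKM was summed per gene. Assembled transcripts held 11.3% to 12.5% of a library's FPKM and were left out of these sums. limma 3.58.1 (R 4.3.3; trend, two-sided) was fitted to log2(FPKM + 0.5) over genes or transcripts with a mean of at least 0.5 FPKM, with Benjamini-Hochberg adjustment over all of them and a threshold of 0.05. Fold changes on that scale understate changes of low genes. The fit was tested on simulated data. Isozyme shares were compared by exact permutation. Tables were made with Python 3.11.15, pandas 2.3.3 and scipy 1.17.1, and figures with matplotlib 3.10.9.

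All 30 members were named whatever their values, and a transcript of a member could be named from 10% of the gene in either group. Of the other pathway genes, up to 10 with the smallest p and 6 fixed genes could be named, of which 1 is not reported here. Members and lists were chosen with earlier results of these data known. Alternatives were other pseudocounts, filters and scalings, protein-coding transcripts alone, a replicate block and each library left out.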

Additional observations from a re-analysis of the deposited data

Results flagged for a closer look

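In 15 of 155 groups of 4 libraries examined, 1 library stood far from the other 3 for the spread of its group; chance alone gives about 1 in 20. Among member genes these were Slc2a1 at 5.14 FPKM in sedentary replicate 4, Slc2a4 at 34.0 FPKM in swimming replicate 3, Eno1 at 17.4 FPKM in sedentary replicate 1 and Pfkfb1 at 5.02 FPKM in swimming replicate 4. The Pygm share of Pygm and Pygb was 39.6% in swimming replicate 4, above the other 3.

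Among transcripts, Ldha-202 was high in sedentary replicate 1 at 57.9 FPKM and in swimming replicate 3 at 124.6 FPKM. Gyg-201 was high in swimming replicate 3 at 11.6 FPKM, and Phka1-202 was low in swimming replicate 1 at 0.643 FPKM. Ugp2-201 was low in sedentary replicate 2 at 57.3 FPKM and high in swimming replicate 2 at 78.6 FPKM.

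Among the other pathway genes, Txnip was high in sedentary replicate 1 at 235.4 FPKM, and Klf15, a transcription factor of muscle metabolism, was low there at 12.9 FPKM. Eno1b was high in sedentary replicate 4 at 3.83 FPKM. Phka2 was high in swimming replicate 2 at 5.49 FPKM.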

How the results depend on the processing

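No member passed the adjusted threshold under any of 15 alternatives. Of 434 member values under them, 393 kept their sign and 41 did not, in 15 members; 14 members, Hk2 among them, kept it throughout. With median-of-ratios scaling, which moved the median of all genes from 0.03 to -0.00, the sign turned for Hk1 (-0.0169), Gpi1 (-0.000737), Pfkm (-0.011), Aldoa (-0.0335), Ldhb (-0.0321), Pygm (-0.0389) and Gbe1 (-0.0261). It turned for Gbe1 also with a pseudocount of 0.1 (-0.00800) and with quantile normalization (-0.046), and for Slc2a1 with protein-coding transcripts alone (0.254); the cause was not tested.

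With 1 library left out, log2 fold changes that turned ran from -0.675 to 0.0587 (Slc2a1), -0.451 to 0.0774 (Slc2a4), -0.0462 to 0.0721 (Hk1), -0.0117 to 0.0704 (Gpi1), -0.261 to 0.32 (Pfkm), -0.0583 to 0.0504 (Aldoa), -0.0368 to 0.000842 (Tpi1), -0.0232 to 0.134 (Eno3), -0.125 to 0.0111 (Ldha), -0.0476 to 0.0438 (Ldhb), -0.284 to 0.101 (Pfkfb1), -0.191 to 0.00856 (Gys1), -0.0400 to 0.0378 (Pygm), -0.17 to 0.161 (Gbe1) and -0.147 to 0.0400 (Phkb). Share differences in percentage points ran from -1.97 to 1.57 (Slc2a4), -3.26 to 2.67 (Pfkm), -0.585 to 0.457 (Pgam2), -0.473 to 1.91 (Ldhb) and 0.00720 to 3.70 (Pfkfb2). Without sedentary replicate 1 the Pfkfb2 share differed by 3.70 points with an exact permutation p of 0.0286, the smallest possible there.

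Over all genes, limma called 2, against 1 with a pseudocount of 0.1, 1 with quantile normalization and 0 to 5 with 1 library left out (0 without swimming replicate 2, 5 without swimming replicate 4). It called 12 transcripts, against 7 at a mean of at least 1 FPKM and 7 to 25 with 1 library left out, and 5 in the fit of transcript shares, against 5 to 18. A replicate block gave 0 genes, 0 transcripts and 0 transcript shares called. The labels do not say whether the replicate numbers pair the samples. Deviations of same-numbered samples correlated at -0.054, 0.0145, -0.00327 and 0.0234. Such correlations cannot show whether these samples were kept or handled together. With the block, the smallest exact sign-flip p for a share was 0.125, which is also the smallest that this test allows. The depth in reads is unknown, so counting error cannot be given.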

Other observations

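The 60 other pathway genes can be read by list. Of 20 tested glycogen genes beyond the members, 13 had log2 fold changes above 0 and 7 below, their median being 0.05, with 0 calls and 3 at an unadjusted limma p below 0.05 (2 higher, 1 lower); over all genes tested that share was 7.37%, for the counts that follow too. Of 9 tested transcription factors tied to these genes, 6 were positive and 3 negative, with a median of 0.10, 0 calls and 1 at an unadjusted p below 0.05, Mlxip, at 5.09 ± 1.65 FPKM in sedentary and 7.41 ± 1.39 in swimming hearts (SD, n = 4 each). Of 6 pyruvate and lactate transport genes, 2 were positive and 4 negative, with a median of -0.13 and 1, Slc16a1, at an unadjusted p below 0.05. Slc16a3, the lactate exporter MCT4, was near the limit of testing at 0.464 ± 0.0996 and 0.712 ± 0.224 FPKM. Pygl, the liver phosphorylase, was at 1.66 ± 0.529 and 1.18 ± 0.232 FPKM, far below Pygm and Pygb.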
